A study of Mus musculus with 12 samples.

Results

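Complex I of the mitochondrial respiratory chain (NADH:ubiquinone oxidoreductase) was followed through 36 of its nuclear-encoded subunit genes, the Ndufa, Ndufb, Ndufc, Ndufs and Ndufv genes, in nerve and motoneurons of mice that lack Gdap1. Members were taken by symbol from the platform annotation. A gene was measured where a probe set carried its symbol and no other, and where there were several such probe sets the one with the highest mean over the 12 arrays stood for the gene. This gave 34 measured members among 18193 genes; Ndufa11 and Ndufs6 had probe sets with several symbols only and were not measured.

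The study set Gdap1 knock-out mice (KO), in which exon 5 of Gdap1 is deleted, against wild type mice (WT). The Gdap1 protein sits in the outer membrane of mitochondria, and its gene is mutated in a form of Charcot-Marie-Tooth neuropathy. The 4 groups were KO motoneurons, WT motoneurons, KO sciatic nerve and WT sciatic nerve, with 3 arrays each. All mice were untreated and 2 months old. Motoneurons were captured by laser, and nerves were lysed whole, so a nerve sample holds Schwann cells together with every other cell of the nerve. Samples were selected on amount and quality of RNA after RNA had been purified from 5 mice, per the design text, and each array is labelled a biological replicate. The Gdap1 probe sets lie in exons 4 and 6, outside the deleted part, so they cannot check the genotype labels.

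Complex I takes electrons from NADH, passes them along a flavin and a chain of iron-sulfur clusters to ubiquinone, and couples this transfer to the pumping of protons across the inner mitochondrial membrane. It is L-shaped. A matrix arm carries the flavin and the iron-sulfur clusters, and a membrane arm holds the proton pumps, whose core subunits are encoded by mitochondrial DNA. Accessory subunits surround this core and are needed for assembly and stability. Neurons and their long axons depend on oxidative phosphorylation, and inherited complex I defects often affect the nervous system.

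The members fell into a matrix arm with 14 measured genes, a proximal membrane arm with 8, a distal membrane arm with 10, the acyl carrier protein Ndufab1, and Ndufa4, which was first described as a complex I subunit and later assigned to complex IV. All values are log2 expression values. Ndufb4 was measured by a dim probe set only, with a mean of 4.80 over 12 arrays, and the other 33 members had means of 12.66 to 14.80.

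The labelled tissues were checked against marker genes. The mean of 13 motoneuron markers was 11.77 to 12.14 in motoneuron arrays and 7.16 to 7.60 in nerve arrays. For 9 Schwann cell and myelin markers it was 7.70 to 7.97 in motoneuron arrays and 13.98 to 14.25 in nerve arrays. The mean of 9 oligodendrocyte markers was 10.44 to 11.23 in motoneuron arrays and 7.55 to 7.95 in nerve arrays. For 10 astrocyte markers it was 10.22 to 10.83 in motoneuron arrays and 9.88 to 10.47 in nerve arrays. In each genotype 5 of these astrocyte markers were higher in motoneurons than in nerve and 5 lower, so their mean does not tell the tissues apart. In nerve arrays 20 skeletal muscle markers spread widely, from 9.15 to 10.14 in KO and from 8.13 to 12.84 in WT.

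In motoneurons no complex I gene passed the test of genotype, and the values nearest to passing were higher in KO and lay mostly in the matrix arm. Ndufa7, an accessory subunit of the matrix arm, was 0.28 higher in KO (1.21-fold). Ndufv1, the subunit that binds flavin and accepts electrons from NADH, was 0.20 higher, and Ndufa5, an accessory subunit of the matrix arm, was 0.18 higher. On the lower side stood Ndufb6, an accessory subunit of the distal membrane arm, at -0.22. The test was limma's moderated test, two-sided, with Benjamini-Hochberg adjustment over 45037 probe sets and a threshold of 0.05.

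Of 34 members 0 passed in motoneurons, where 0.0% of all genes did, and the smallest adjusted p among members was 0.108. At an unadjusted p under 0.05, 7 members were higher in KO, beside a background of 9.94% of genes, and 2 were lower, beside 10.9%. The members had a median standard error of 0.046, against 0.185 for all genes, so all genes are not a like background. With the brighter probe sets only, 1560 of 11809 genes were higher at that threshold and 1806 lower. All 34 members together had a median difference of 0.049, against 0.019 for all genes. A higher value in KO was found for 24 members and a lower one for 10, while 52.7% of all genes had a higher value. These shares are a description, since the members are not independent of one another.

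The values are given next by arm. In the matrix arm 13 of 14 members had a higher value in KO motoneurons, with a median of 0.078 and Ndufs1 as the exception. The proximal membrane arm had 7 of 8 on that side, with a median of 0.077. Ndufc2 was counted there at 0.069, but of its 4 probe sets all others were lower in KO. They differed by -0.075 to -0.19, and the one nearly as bright by -0.095 (unadjusted p = 0.0315 by limma). The distal membrane arm had 4 higher values and 6 lower ones, with a median of -0.030. No test of the difference between arms was made.

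KO and WT arrays did not overlap for 13 members. Of these, 11 were higher in KO, beside a background of 13.9% of genes, and 2 were lower, beside 11.9%. Both shares are over all genes and not over genes as bright as the members. The 11 were Ndufa2, Ndufa5, Ndufa7, Ndufa12, Ndufs7, Ndufv1 and Ndufv2 of the matrix arm, Ndufa10, Ndufa13 and Ndufs5 of the proximal membrane arm, and Ndufb11 of the distal one. The 2 lower members were Ndufb5 and Ndufb6. Of the 4 probe sets of Ndufa12, another nearly as bright was lower in KO (-0.13, unadjusted p = 0.0156), so its direction depends on the probe set.

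Ndufa7 measured 13.21, 13.14 and 13.21 in KO motoneurons, against 12.92, 12.94 and 12.87 in WT motoneurons. All 3 KO arrays lay above all 3 WT arrays, and the gap between the groups was larger than the spread within either. The difference had a standard error of 0.054 and a 95% interval of 0.16 to 0.40 (unadjusted p = 0.00092, adjusted p = 0.108 by limma). Its 5 probe sets were all higher in KO, by 0.14 to 0.44. Such agreement is between probes on the same arrays and adds no replicate.

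Ndufv1 measured 14.33, 14.35 and 14.41 in KO motoneurons, against 14.19, 14.10 and 14.21 in WT motoneurons. The KO arrays were again all above the WT arrays, and its 3 probe sets were higher in KO by 0.18 to 0.20. The interval of the difference ran from 0.094 to 0.30 (adjusted p = 0.122 by limma). Ndufa5 measured 14.28, 14.33 and 14.27 in KO motoneurons, against 14.09, 14.08 and 14.17 in WT motoneurons. The lowest KO array was above the highest WT array (adjusted p = 0.124 by limma).

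Ndufa10, an accessory subunit of the proximal membrane arm related to nucleoside kinases, measured 14.21, 14.20 and 14.20 in KO motoneurons, against 14.04, 14.06 and 14.13 in WT motoneurons. The KO arrays were nearly equal to one another and all above the WT arrays. The difference was 0.13 with a standard error of 0.039 (adjusted p = 0.175 by limma). A second, dimmer probe set of Ndufa10 was 0.22 higher in KO.

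Among lower values, Ndufb6 measured 13.36, 13.49 and 13.36 in KO motoneurons, against 13.61, 13.58 and 13.67 in WT motoneurons. Every KO array lay below every WT array (difference -0.22, standard error 0.055, adjusted p = 0.136 by limma). Its second probe set differed by -0.037, with an unadjusted p of 0.455. Ndufa4 measured 14.02, 13.83 and 13.98 in KO motoneurons, against 14.20, 14.21 and 13.98 in WT motoneurons. WT replicate 3 lay among the KO arrays, so the groups overlapped (difference -0.18, standard error 0.077, adjusted p = 0.281 by limma).

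Ndufs1, the large iron-sulfur subunit at the tip of the matrix arm, measured 13.00, 12.95 and 13.02 in KO motoneurons, against 13.35, 13.38 and 12.89 in WT motoneurons. WT replicates 1 and 2 were above all KO arrays, and WT replicate 3 was below all of them. The difference was -0.22 with an interval of -0.51 to 0.075 (adjusted p = 0.431 by limma). Ndufa1, an X-linked subunit of the proximal membrane arm, measured 13.50, 13.47 and 13.50 in KO motoneurons, against 13.68, 13.72 and 13.48 in WT motoneurons. Here too WT replicate 3 sat with the KO arrays and the other WT arrays above them (difference -0.14, adjusted p = 0.348 by limma).

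**Figure D1:**
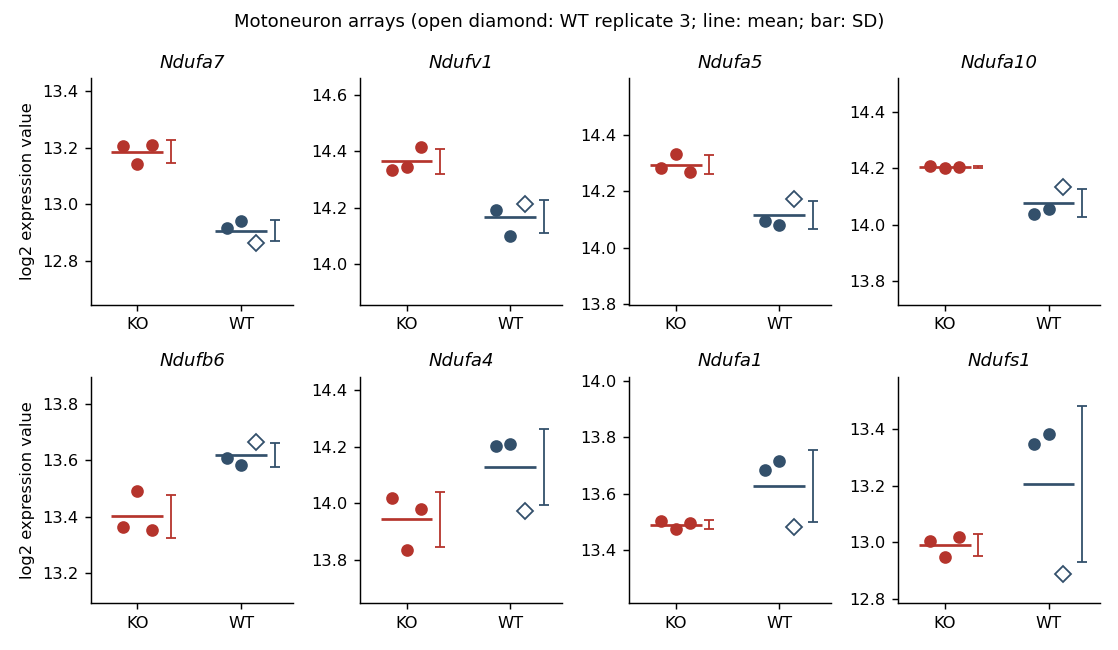
Log2 expression value (vertical axis, each panel spanning 0.8) of 8 complex I genes in KO (left) and WT (right) motoneuron arrays, with each array as a point, group means as lines and SDs as bars (n = 3). KO lies above WT in all arrays of Ndufa7, Ndufv1, Ndufa5 and Ndufa10, whereas WT replicate 3, the open diamond, lies with or below KO for Ndufa4, Ndufa1 and Ndufs1.

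Without WT replicate 3, 7 members passed in motoneurons. Those higher in KO were Ndufa7 (0.26), Ndufv1 (0.22), Ndufa5 (0.21) and Ndufa10 (0.16), beside 5.62% of all genes. Those lower in KO were Ndufs1 (-0.37), Ndufa4 (-0.26) and Ndufa1 (-0.21), beside 8.4% of all genes. With limma's array weights, which reduce the influence of arrays far from their group, the same 4 members passed as higher, beside 3.42% of genes, and Ndufb6 passed as lower, beside 5.57%. The lower members that passed differed between these alternatives, and Ndufb6 had an adjusted p of 0.0693 without WT replicate 3.

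Several technical and cell type measures moved with these groups. The 18S control probe set read 10.41, 10.48 and 10.14 in KO motoneurons, against 9.25, 9.11 and 10.27 in WT motoneurons, so that WT replicate 3 lay with the KO arrays, as it did for Ndufa4 and Ndufa1. The spiked bioB control was 10.67 to 10.81 in KO motoneurons and 11.17 to 11.44 in WT motoneurons. In nerve bioB was also lower in every KO array (10.58 to 10.70) than in any WT array (11.54 to 11.80). The means of 10 astrocyte markers were 10.22 to 10.54 in KO motoneurons and 10.58 to 10.83 in WT motoneurons, and those of 10 endothelial and mural markers 6.45 to 6.86 in KO and 7.02 to 7.28 in WT. The 3′ minus 5′ difference of the actin control, a sign of RNA quality, was 1.53, 1.68 and 1.501 in KO motoneurons and 1.70, 1.97 and 1.62 in WT motoneurons, with WT replicate 3 among the KO arrays. The means of 20 muscle markers (5.92 to 6.01 in KO, 5.70 to 5.79 in WT) and of 8 fibroblast markers (5.85 to 5.96 in KO, 6.02 to 6.36 in WT) also did not overlap between the genotypes. The sex-linked transcript Xist was low in KO replicate 2 only (5.18, against 9.37 to 10.38 in the other motoneuron arrays). The part of these measures in the subunit values was not tested. Fewer cells of a type and less RNA per cell cannot be told apart in such samples.

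The remaining core subunits of the matrix arm had small differences. Ndufv2, which carries an iron-sulfur cluster next to the flavin subunit, measured 14.07, 14.08 and 14.07 in KO motoneurons, against 13.99, 14.02 and 13.99 in WT motoneurons. Ndufs7, which carries the last cluster before ubiquinone, measured 14.57, 14.65 and 14.61 in KO motoneurons, against 14.45, 14.51 and 14.54 in WT motoneurons. Neither pair of groups overlapped, with differences of 0.069 and 0.11 and adjusted p-values of 0.37 and 0.201 by limma.

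Ndufs8, another iron-sulfur subunit, measured 14.20, 14.14 and 14.23 in KO motoneurons, against 14.18, 14.16 and 14.08 in WT motoneurons. For Ndufs3, a core subunit near the ubiquinone site, the values were 14.16, 14.22 and 14.20 in KO motoneurons and 14.20, 14.22 and 14.03 in WT motoneurons. Both overlapped between genotypes, with differences of 0.049 and 0.044. Ndufb11, X-linked like Ndufa1 but in the distal membrane arm, measured 14.56, 14.57 and 14.55 in KO motoneurons, against 14.48, 14.45 and 14.49 in WT motoneurons. Its KO arrays were all above its WT arrays (difference 0.086, adjusted p = 0.216 by limma), which is the opposite side from Ndufa1.

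The start regions of 4 members that the motoneuron and tissue comparisons turn on are shown, with 2 of the highest and 2 of the lowest tissue differences on the deposited values. Each is 100 bases directly upstream of the annotated start, written 5′ to 3′ on the gene's strand, from RefSeq on build GRCm38.p6. They lie at chr1:92473759-92473858 for Ndufa10, chr6:11907451-11907550 for Ndufa4, chr17:33824472-33824571 for Ndufa7 and chr8:69902021-69902120 for Ndufa13. Ndufa7 is on the plus strand and the others are on the minus strand. For Ndufa7 2 starts were listed, and the upstream one is shown. Capitals mark a match to the YY1 motif ATGGCGG.
Ndufa10: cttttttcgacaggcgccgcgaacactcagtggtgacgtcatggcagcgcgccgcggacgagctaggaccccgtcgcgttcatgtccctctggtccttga
Ndufa4: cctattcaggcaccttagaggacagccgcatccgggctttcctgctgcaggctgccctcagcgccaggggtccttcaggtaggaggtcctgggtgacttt
Ndufa7: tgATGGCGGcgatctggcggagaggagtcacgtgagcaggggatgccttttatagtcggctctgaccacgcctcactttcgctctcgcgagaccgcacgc
Ndufa13: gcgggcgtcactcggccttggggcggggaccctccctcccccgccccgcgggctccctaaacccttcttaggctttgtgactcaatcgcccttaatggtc

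Motifs of 3 factors known to act on nuclear genes of respiratory subunits were searched on both strands, from 250 bases before to 50 after the start, in 31 members and 27025 genes. The letters were GCATGCG for NRF1, CCGGAAG for ETS factors and ATGGCGG for YY1, and none of the 3 contains another. NRF1 letters were present in 2 members (6.45%, against 4.01% of all genes), and ETS letters in 4 (12.9%, against 9.93%). YY1 letters were present in 7 members (22.6%, against 4.69%): Ndufa1, Ndufa5, Ndufa7, Ndufa9, Ndufb5, Ndufs4 and Ndufs7. In 4 of the 7 the match lay after the start. The 7 do not share a direction in KO motoneurons, since Ndufa7 and Ndufa5 had higher values and Ndufa1 and Ndufb5 lower ones. A match describes letters in a window and is not a binding site.

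In sciatic nerve the complex I genes of KO and WT lay close together. No member passed, and 32 of 34 differed by less than 0.1. The members had a median difference of -0.013, and their range without Ndufb4 was -0.13 for Ndufa4 to 0.065 for Ndufa8, a subunit on the intermembrane side of the membrane arm. By limma 0 members passed, where 0.0% of all genes did, and every adjusted p was 1. At an unadjusted p under 0.05 there were also 0 members, beside 2.04% of genes, and for 0 members did the groups lie apart, beside 6.91%.

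A difference remains possible in nerve. The intervals of some members, such as Ndufa10 (-0.43 to 0.39), took in the 0.28 of Ndufa7 in motoneurons. Leaving out Ndufb4, the 95% intervals of the members reached at most -0.43 below and 0.39 above zero. The members had a median standard error of 0.084, against 0.159 for all genes. A value higher in KO was found for 12 members and a lower one for 22, and in the matrix arm for 2 and 12.

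The members with the smallest unadjusted p on the higher side were Ndufa8, Ndufa9, Ndufs8 and Ndufb7. Ndufa8 measured 13.57, 13.66 and 13.44 in KO nerves, against 13.60, 13.49 and 13.39 in WT nerves. Ndufa9, an accessory subunit near the ubiquinone site, measured 13.92, 14.17 and 13.94 in KO nerves, against 14.03, 13.97 and 13.85 in WT nerves. Ndufs8 measured 13.91, 14.08 and 13.83 in KO nerves, against 13.97, 13.93 and 13.74 in WT nerves. In each of these the genotypes overlapped, and KO replicate 2 was the highest of the 6 arrays. Ndufb7, of the distal membrane arm, measured 14.60, 14.64 and 14.52 in KO nerves, against 14.60, 14.56 and 14.49 in WT nerves, with the same highest array. These 4 differences were 0.065, 0.061, 0.062 and 0.033; that of Ndufb7 was -0.0084 once each array was centred on its median.

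On the lower side, Ndufa4 measured 13.02, 13.20 and 12.84 in KO nerves, against 13.37, 13.10 and 12.99 in WT nerves. Ndufb6 measured 13.10, 13.32 and 13.18 in KO nerves, against 13.34, 13.32 and 13.24 in WT nerves. The KO and WT arrays overlapped for both genes (differences -0.13 and -0.10). Ndufb5, of the distal membrane arm, measured 14.18, 14.38 and 14.15 in KO nerves, against 14.34, 14.37 and 14.20 in WT nerves (difference -0.069). The dim Ndufb4 measured 5.25, 4.94 and 5.74 in KO nerves, against 5.44, 5.54 and 5.95 in WT nerves (difference -0.33, standard error 0.24). Groups overlapped in all 4.

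**Figure D2:**
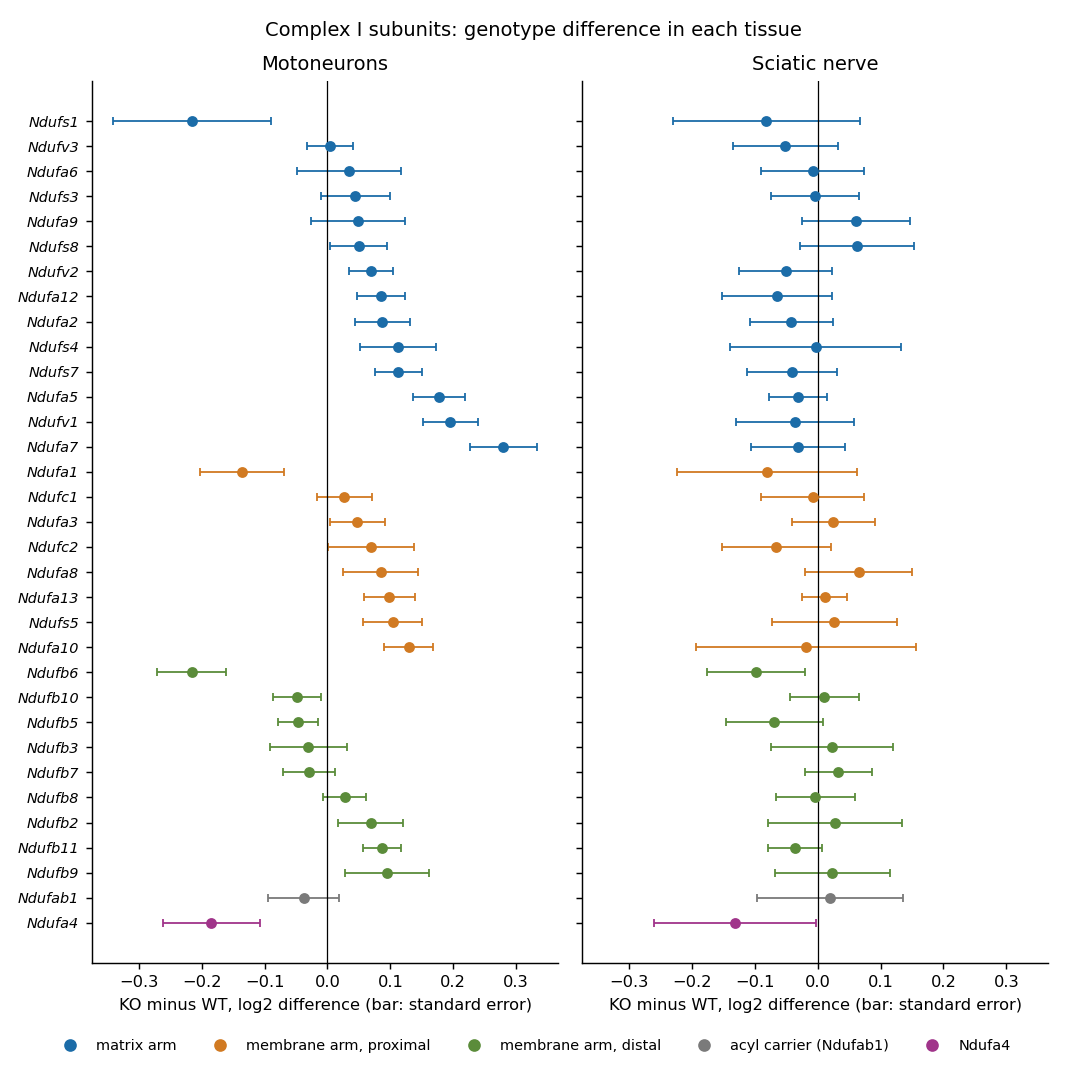
KO minus WT difference in log2 expression (horizontal axis, bars are standard errors from limma) of 33 complex I genes in motoneurons (left) and sciatic nerve (right), ordered and coloured by arm of the complex; the dim Ndufb4 is left out. Matrix arm genes lie mostly right of zero in motoneurons, with Ndufa7 at 0.28 and Ndufs1 at -0.22, and all 33 lie between -0.13 and 0.065 in nerve.

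Within each genotype the nerve arrays differed from one another in a way that ran through most members. The median of the 34 members was 13.92, 14.02 and 13.82 in KO nerves, and 14.01, 13.96 and 13.81 in WT nerves. KO replicate 3 was the lowest KO array for 30 members, and WT replicate 3 the lowest WT array for 32. Both held for 30 members (88.2%) and for 19.5% of all genes. The subunits of complexes II to V had their lowest medians in the same arrays, at 14.24, 14.39 and 14.20 in KO nerves and 14.36, 14.37 and 14.22 in WT nerves. This arrangement was noticed in the values and carries no test.

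Several cell type lists had their lowest means in the same arrays of both genotypes. For 6 adipocyte markers the means were 12.52, 12.90 and 12.05 in KO nerves, and 12.60, 12.76 and 12.05 in WT nerves. Endothelial and mural markers had 11.97, 12.03 and 11.87 in KO nerves and 12.01, 11.99 and 11.88 in WT nerves, the array order of the subunit medians. Microglia and macrophage markers had 11.46, 11.63 and 11.35 in KO nerves and 11.40, 11.79 and 11.15 in WT nerves. Fibroblast markers were lowest there too, at 14.23 in each genotype. The means of 20 muscle markers were 10.14, 9.15 and 9.90 in KO nerves, and 12.84, 8.13 and 11.45 in WT nerves, a different order. Schwann cell and myelin markers ran the other way, with 14.12, 13.98 and 14.25 in KO nerves and 14.01, 14.01 and 14.22 in WT nerves. Xist was high in KO replicate 3 and WT replicate 2 (12.54 and 12.49) and 4.49 to 6.06 in the other nerve arrays. The 18S control probe set read 10.61, 10.63 and 10.83 in KO nerves and 10.60, 10.50 and 10.79 in WT nerves. It was thus highest in the arrays with the lowest subunit values. The part of these cell types and controls in the subunit values was not tested.

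**Figure D3:**
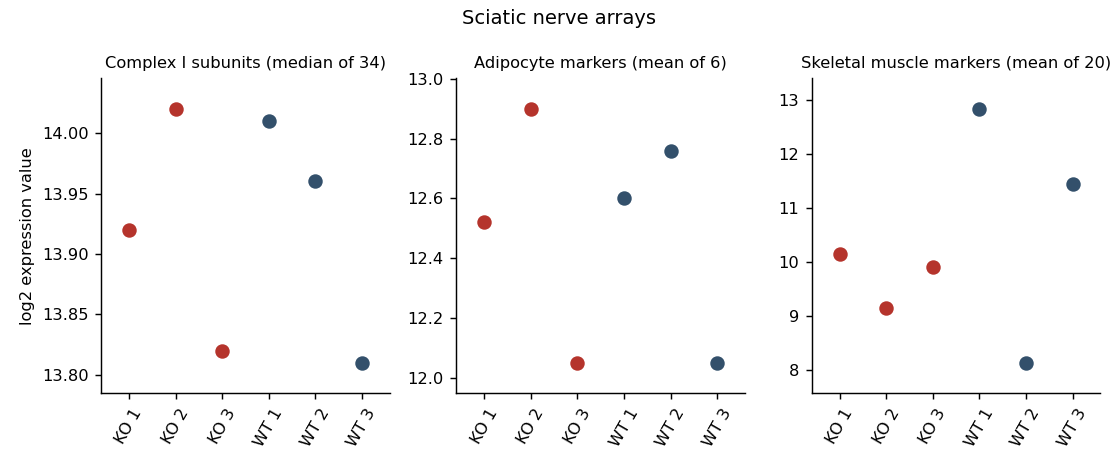
Log2 expression values in the 6 sciatic nerve arrays (KO left, WT right; each point is 1 array): the median of 34 complex I genes, the mean of 6 adipocyte markers and the mean of 20 skeletal muscle markers, each on its own axis. KO 3 and WT 3 are lowest for complex I (13.82 and 13.81) and for adipocyte markers (12.05 each). Endothelial, macrophage and fibroblast markers, not drawn, are lowest in the same arrays.

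Whether the genotype difference was the same in the 2 tissues was tested as an interaction over all 12 arrays. By limma 0 members passed, where 0.0% of all genes did, and the smallest adjusted p among members was 0.594. At an unadjusted p under 0.05 the difference in motoneurons exceeded that in nerve for 3 members, beside 4.16% of genes, and was below it for 0, beside 4.91%. The 3 were Ndufa7 (0.31, standard error 0.091), Ndufa5 (0.21, standard error 0.060) and Ndufb11 (0.12, standard error 0.050).

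In nerve these 3 genes had values slightly lower in KO. Ndufa7 measured 13.68, 13.72 and 13.58 in KO nerves, against 13.72, 13.77 and 13.57 in WT nerves. Ndufa5 measured 14.41, 14.37 and 14.33 in KO nerves, against 14.43, 14.40 and 14.38 in WT nerves. Ndufb11 measured 14.89, 14.88 and 14.86 in KO nerves, against 14.96, 14.92 and 14.86 in WT nerves. All 3 overlapped between genotypes. Ndufv1 followed with an interaction of 0.23 (standard error 0.108), and its nerve values were 14.002, 13.960 and 13.799 in KO, against 14.02, 14.08 and 13.78 in WT.

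On the other side of the interaction stood Ndufs1 (-0.13), Ndufb6 (-0.12), Ndufb7 (-0.063) and Ndufb10 (-0.058), a distal membrane arm subunit. Ndufs1 measured 12.30, 12.34 and 11.94 in KO nerves, against 12.41, 12.38 and 12.03 in WT nerves, with replicate 3 lowest in each genotype. The sign of the genotype difference was the same in both tissues for 14 of 34 members, and 16 were higher in KO motoneurons and lower in KO nerve. Over all members the interaction had a median of 0.042, against 0.017 for all genes, and over the matrix arm 0.12.

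The other core subunits did not separate the genotypes in nerve. Ndufv2 measured 13.84, 14.01 and 13.81 in KO nerves, against 13.998, 13.957 and 13.848 in WT nerves. Ndufs3 measured 13.99, 14.04 and 13.91 in KO nerves, against 14.04, 14.04 and 13.86 in WT nerves. Ndufs7 measured 14.43, 14.39 and 14.30 in KO nerves, against 14.46, 14.50 and 14.28 in WT nerves. The arrays of KO and WT were intermixed in these 3, as they were for the X-linked Ndufa1, with 13.15, 13.57 and 13.14 in KO nerves and 13.47, 13.47 and 13.15 in WT nerves.

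Between tissues, the median difference of complex I genes stood above that of all genes, and the members differed widely from one another. Array medians differed between the tissues, which were read as normalized separately, so the zero of this comparison is not fixed. The 3′ minus 5′ difference of the actin control was 1.501 to 1.97 in motoneuron arrays and 0.69 to 1.17 in nerve arrays. That of the Gapdh control overlapped, at 0.82 to 0.95 in motoneuron arrays and 0.73 to 1.03 in nerve arrays. RNA was also amplified with a different extraction kit for each tissue. The part of RNA quality and preparation in the tissue differences was not tested. The median of all genes was -0.86 for KO motoneurons minus KO nerve and -0.90 for WT motoneurons minus WT nerve, and members are read against it. On the deposited values the members had medians of 0.11 in KO and 0.084 in WT, which is 0.96 and 0.99 above the median of all genes. The gap between tissues depended on brightness. Array medians were 6.53 to 6.59 in motoneurons and 8.29 to 8.40 in nerve, but 95th percentiles were 12.83 to 12.87 and 13.37 to 13.40. The median of all genes is therefore not a like baseline for bright members. The part of brightness in the 0.96 and 0.99 was not tested. After quantile normalization of both tissues together they were 0.31 above it in KO and 0.28 above it in WT.

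On the deposited values 13 members were higher in KO motoneurons than in KO nerve, beside 18.9% of genes, 7 were lower, beside 64.1%, and 14 passed in neither direction. In WT, 10 were higher, beside 17.7% of genes, 9 lower, beside 63.7%, and 15 neither. Without WT motoneuron replicate 2, 6 were higher in WT, beside 2999 of 18193 genes. Without limma's mean trend 6 were higher in KO, beside 3296 genes, and 5 in WT, beside 3110. The split moved with the scaling. After quantile normalization together it was 29 higher and 0 lower in KO, beside 44.5% and 31.8% of genes, and 26 higher and 2 lower in WT, beside 43.1% and 30.6%. After centring each array on its median it was 33 higher and 0 lower in each genotype, beside 63.1% and 20.5% of genes in KO and 61.2% and 20.0% in WT. Among all genes that passed, 22.7% were higher in KO motoneurons on the deposited values, 58.3% after quantile normalization and 75.5% after centring, and in WT motoneurons these shares were 21.8%, 58.5% and 75.3%.

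The higher members of both genotypes were Ndufa4, Ndufa6, Ndufa10, Ndufb2, Ndufb6, Ndufs1, Ndufs8 and Ndufv1. The lower members of both genotypes on the deposited values were Ndufa2, Ndufa7, Ndufa13, Ndufb4, Ndufb9, Ndufb11 and Ndufv3. After quantile normalization together 0 of these passed as lower in KO, and Ndufa7 (-0.27, adjusted p = 0.0153 by limma) and Ndufa2 (-0.18, adjusted p = 0.0357) passed as lower in WT. Some passed as higher after it. These were Ndufv3 in KO (0.30, adjusted p = 0.00116 by limma) and in WT (0.23, adjusted p = 0.0137), and Ndufb11 in KO (0.19, adjusted p = 0.00062). Centring shifts all genes upward alike, and after it none of the lower members had a value below zero. On the deposited values no member passed in opposite directions in KO and WT, and 10 passed in neither genotype. WT and KO share no array in this comparison. Pearson's r of the 2 tissue differences was 0.978 over the 34 members and 0.973 without Ndufb4, given as a description over genes measured on the same arrays.

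Ndufa10 had the highest tissue difference of any member in both genotypes, on the deposited values and after quantile normalization. It measured 14.21, 14.20 and 14.20 in KO motoneurons, against 13.08, 13.25 and 12.71 in KO nerves, a difference of 1.19 (2.28-fold, standard error 0.118, adjusted p = 1.5e-05 by limma). In WT it measured 14.04, 14.06 and 14.13 in motoneurons, against 13.11, 13.25 and 12.74 in nerves, a difference of 1.04 (2.06-fold, standard error 0.126). Motoneuron arrays were all above nerve arrays, and replicate 3 was lowest among the nerves of each genotype. Its second probe set differed by 2.64 in KO and 2.45 in WT.

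Ndufa4 and Ndufs1 came next, in either order. Ndufa4 measured 14.02, 13.83 and 13.98 in KO motoneurons, against 13.02, 13.20 and 12.84 in KO nerves (0.92), and 14.20, 14.21 and 13.98 in WT motoneurons, against 13.37, 13.10 and 12.99 in WT nerves (0.98). Ndufs1 was 0.80 higher in KO motoneurons than in KO nerves and 0.93 higher in WT motoneurons than in WT nerves, from the arrays given above. No motoneuron array of either gene overlapped with nerve. Adjusted p-values by limma were 1.75e-05 and 7.7e-05 for Ndufa4 in KO and WT, and 0.000111 and 0.000806 for Ndufs1.

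Ndufb2, an accessory subunit of the distal membrane arm, measured 13.55, 13.43 and 13.53 in KO motoneurons, against 12.89, 13.11 and 12.86 in KO nerves (0.55). In WT it measured 13.46, 13.40 and 13.45 in motoneurons, against 13.07, 12.92 and 12.78 in nerves (0.51). Its probe sets disagreed, since the dimmest of its 3 was lower in motoneurons by a difference of -3.59 in KO and -2.94 in WT, and stayed lower under both rescalings. Ndufb6 was 0.20 higher in KO motoneurons than in KO nerves, and 0.32 higher in WT motoneurons than in WT nerves. Its call in KO was lost without KO nerve replicate 1 or 3, or without KO motoneuron replicate 1 or 2, with differences of 0.15 to 0.22. Ndufv1 was 0.44 higher in KO and 0.21 higher in WT (adjusted p = 0.000113 and 0.045 by limma).

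At the other end, Ndufa7 was 0.47 lower in KO motoneurons than in KO nerves and 0.78 lower in WT motoneurons than in WT nerves on the deposited values. After quantile normalization its differences were 0.049 in KO and -0.27 in WT, and after centring 1.31 and 0.98. Its 5 probe sets were all lower in motoneurons on the deposited values. Ndufa13, a subunit of the proximal membrane arm also known as GRIM-19, measured 14.62, 14.55 and 14.58 in KO motoneurons, against 15.09, 15.06 and 15.09 in KO nerves. In WT it measured 14.43, 14.48 and 14.55 in motoneurons, against 15.07, 15.05 and 15.09 in nerves. Nerve arrays were thus tightly grouped above all motoneuron arrays, with differences of -0.50 in KO and -0.58 in WT on the deposited values, 0.025 and -0.082 after quantile normalization, and 1.28 and 1.18 after centring.

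Ndufa2, a small matrix arm subunit with a thioredoxin fold, measured 13.76, 13.71 and 13.71 in KO motoneurons, against 14.21, 14.22 and 14.09 in KO nerves (-0.45). In WT it measured 13.66, 13.67 and 13.59 in motoneurons, against 14.28, 14.26 and 14.12 in nerves (-0.58). Ndufb9, a distal membrane arm subunit of the LYR family, differed by -0.48 in KO and -0.55 in WT. Both were lower in every motoneuron array than in any nerve array on the deposited values. After quantile normalization the differences in KO and WT were -0.025 and -0.18 for Ndufa2 and -0.067 and -0.15 for Ndufb9, and after centring 1.33 and 1.18 for Ndufa2 and 1.30 and 1.21 for Ndufb9. The dim Ndufb4 differed by -1.37 in KO and -1.35 in WT, and by 0.012 and 0.32 after quantile normalization.

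Centring adds 1 constant to every gene of a comparison and so keeps the order of the members by construction. Quantile normalization together kept Ndufa10, Ndufa4, Ndufs1 and Ndufb2 as the 4 highest members in both genotypes, while other ranks moved. In KO, Ndufb6 had rank 8 of 34 after it, against 12 on the deposited values. In WT, Ndufb4 had rank 24 after it, against 34, and Ndufa4 and Ndufs1 changed places. In WT, Ndufa10 stood 0.96 above the members' median on the deposited values and 1.02 above it after quantile normalization, and Ndufa7 stood 0.86 and 0.79 below it. Ndufab1, Ndufb8, Ndufs4 and Ndufs8 also had probe sets with opposite tissue differences on the deposited values, so for them the tissue value on that scale depends on the probe set. Their other probe sets were not read under the rescalings.

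**Figure D4:**
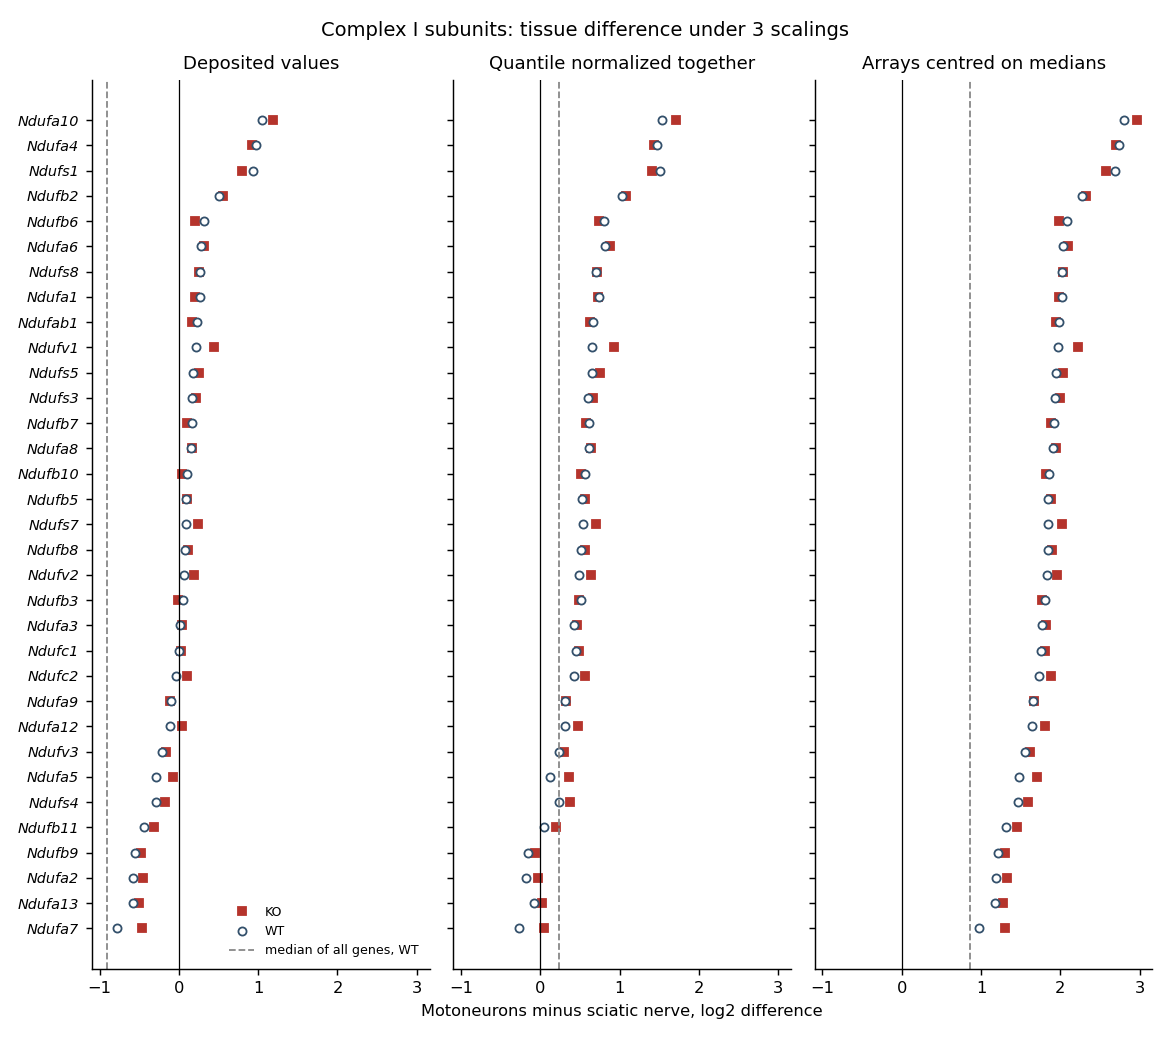
Motoneuron minus nerve difference in log2 expression (horizontal axis) of 33 complex I genes in KO (filled squares) and WT (open circles) under 3 scalings, with the median of all genes in WT as a dashed line; the dim Ndufb4 is left out. The 4 highest genes are the same in each panel, while the position against zero shifts from both sides of it on the deposited values to above it for all 33 genes after centring.

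Genes that work with these subunits were read beside them. ND5, a proton-pumping core subunit encoded by mitochondrial DNA and the only such complex I gene with a probe set here, measured 13.53, 13.75 and 13.58 in KO motoneurons, against 13.90, 13.97 and 13.79 in WT motoneurons. Its KO arrays were all below its WT arrays (difference -0.27, standard error 0.072, adjusted p = 0.147 by limma), on the other side of zero from most matrix arm genes. In nerve ND5 measured 13.93, 14.14 and 14.08 in KO, against 14.09, 14.14 and 14.17 in WT, and the genotypes overlapped. Its tissue difference was -0.43 in KO and -0.25 in WT on the deposited values, 0.018 and 0.15 after quantile normalization, and 1.35 and 1.51 after centring.

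Of 20 assembly factors, which build the complex without staying in it, 19 were measured and 0 passed for genotype in either tissue. In motoneurons 3 of 19 were higher in KO at an unadjusted p under 0.05, beside 9.94% of genes, and 0 lower, beside 10.9%: Tmem126b (0.61), Dmac1 (0.23) and Ndufaf3 (0.20). Between tissues on the deposited values 9 were higher and 6 lower in KO motoneurons, beside 18.9% and 64.1% of genes, and 10 higher and 5 lower in WT motoneurons, beside 17.7% and 63.7%. Ndufaf5, which modifies Ndufs7, had the largest of these differences, at 2.04 in KO and 1.83 in WT, and stayed higher under both rescalings. Lyrm2 and Ndufaf8 were lower in motoneurons by differences of -1.26 and -1.19 in KO and of -1.36 and -1.21 in WT on the deposited values and by -0.67 and -0.59 in KO and -0.79 and -0.62 in WT after quantile normalization, while after centring the differences were 0.52 and 0.59 in KO and 0.40 and 0.55 in WT. A second probe set of Lyrm2 was lower under each scaling, by -1.05 in KO and -1.09 in WT after centring.

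Of 38 subunits of complexes II to V, 37 were measured and 0 passed for genotype in either tissue. In KO motoneurons 5 of 37 were higher and 4 lower at an unadjusted p under 0.05, near the shares of all genes (9.94% and 10.9%). Among these were Uqcrq (0.36), a subunit of complex III, and Atp5g2 (0.36), of ATP synthase, on the higher side. Uqcrb (-0.46), of complex III, and Cox6a1 (-0.22), of complex IV, were on the lower side. Their tissue differences on the deposited values had medians of -0.14 in KO and -0.17 in WT, against 0.11 and 0.084 for complex I. That difference between the complexes was not tested. Ndufa4l2, a paralog of Ndufa4 that responds to hypoxia, was lower in motoneurons than in nerve by differences of -3.58 in KO and -3.32 in WT, and stayed lower under both rescalings.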

How the data were processed

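RNA of 12 samples was measured on Affymetrix 3′ arrays. The authors deposited log2 expression values per probe set; the scale was read from the values. They were made with Affymetrix Expression Console 1.1, per the submitters' processing notes, and 20 ng of RNA was amplified with a different extraction kit for each tissue, per the labels' protocols. The summarization method is not given in the sources used here. Array medians were 8.29 to 8.40 in nerve and 6.53 to 6.59 in motoneurons, so each tissue was read as normalized on its own and a level in one is not on the scale of the other. Precision is set by the number of arrays, 3 in each group.

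Of 45101 probe sets, 64 controls were left out. Symbols came from the platform annotation, updated by gene identifier through RefSeq (GRCm38.p6), and 1 probe set stood for a gene. Model fits used lmFit and eBayes with a mean trend, from limma 3.58.1 under R 4.3.3, two-sided, with Benjamini-Hochberg adjustment over 45037 probe sets at 0.05. The fit was tested on simulated data. Genotype was compared within each tissue and as an interaction, and tissue within each genotype. Members named with every array were, for each genotype comparison, the 4 higher and 4 lower with the smallest unadjusted p; for tissue, the 5 highest and 5 lowest by the WT difference; the core subunits of the matrix arm; and the X-linked members. Other lists gave up to 4 genes by smallest p. The members and lists were chosen with earlier results of these data known. Alternatives covered scaling, filtering, weights, covariates, probe sets and each array left out.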

Additional observations from a re-analysis of the deposited data

How the results depend on the processing

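Genotype calls on members stayed at 0 in nerve and in the interaction under every alternative run. In motoneurons they were 0 to 4 higher and 0 to 3 lower when each array was left out in turn, 4 and 3 of these without WT replicate 3, and 4 higher and 1 lower with array weights; the members' median was 0.080 with Xist as a covariate. In KO, members higher and lower in motoneurons numbered 29 and 0 (median 0.56) after quantile normalization, beside 44.5% and 31.8% of genes. After centring they numbered 33 and 0 (median 1.88), beside 63.1% and 20.5%. Without a mean trend 6 were higher, beside 3296 of 18193 genes. When probe sets of a gene were averaged 12 were lower, beside 12264 genes. In WT, members higher and lower numbered 26 and 2 (median 0.52) after quantile normalization, beside 43.1% and 30.6% of genes. After centring they numbered 33 and 0 (median 1.84), beside 61.2% and 20.0%. Without a mean trend 5 were higher, beside 3110 of 18193 genes. When each array was left out 6 to 13 were higher. The 6 were found without WT motoneuron replicate 2, beside 2999 genes. The cause of these changes was not tested.

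Among the highest and lowest members by the WT difference, the sign of some tissue differences turned. After quantile normalization these were Ndufb4 (0.012 in KO and 0.32 in WT), Ndufa7 (0.049 in KO) and Ndufa13 (0.025 in KO). After centring they were Ndufb4 (0.41 in each genotype), Ndufa7 (1.31 in KO, 0.98 in WT), Ndufa13 (1.28, 1.18), Ndufa2 (1.33, 1.18) and Ndufb9 (1.30, 1.21). Other members turned too, such as Ndufv3 (0.30 in KO and 0.23 in WT after quantile normalization) and Ndufb11 (0.19 in KO). After quantile normalization only Ndufa2 and Ndufb9 stayed below zero in KO, and in WT these with Ndufa7 and Ndufa13. After centring no member was below zero. Ndufb2 turned to -0.82 in KO and -0.60 in WT when its probe sets were averaged. In nerve the genotype difference of Ndufb7 turned to -0.0084 after centring, that of Ndufb5 to 0.00712 without both arrays with high Xist (an alternative chosen after seeing the data), and those of Ndufs8 and Ndufa9 ranged from -0.00860 to 0.12 and from -0.020 to 0.10 when each array was left out.

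Replicate numbers are shared between groups. Deviations of same-numbered KO and WT arrays correlated at 0.026, 0.305 and 0.216 in nerve and at 0.09, -0.064 and -0.079 in motoneurons. Those of differently numbered arrays correlated at -0.303 to 0.089 in nerve and at -0.12 to 0.146 in motoneurons. In nerve, replicates 2 and 3 were thus more alike by number, and whether such arrays share a preparation was not tested. The labels name no pairs, and the main fits did not take the numbers as pairs. With the replicate number as a block, 0 members passed for genotype in nerve, in motoneurons and in the interaction. Between tissues 13 were then higher and 6 lower in KO, beside 3408 and 11576 of 18193 genes. In WT 11 were higher and 9 lower, beside 3149 and 11423 genes.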
